A study of Mus musculus with 16 samples.

Results

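The 4 genes described here, Cdo1, Csad, Ado and Slc6a6, make taurine from cysteine or cysteamine or carry it into the cell. They are 4 of the 24082 genes in a table of liver RNA sequencing, were found in it by their symbols, and were selected for their pattern in these same libraries, so their own values are given as a description, with no p-value, and nothing is read from how many of them passed a threshold. Liver RNA came from 16 female C57Bl6/J mice aged 9 to 11 weeks, with 4 mice in each of 4 groups. Pair control mice had the pair diet and vehicle, and Pair IMC mice had the pair diet with iodomethylcholine (IMC). EtOH control mice had the chronic ethanol (Lieber-DeCarli) diet and vehicle, and EtOH IMC mice had the ethanol diet with IMC. IMC blocks the bacterial enzyme that splits trimethylamine from choline in the gut, and the liquid diet held 0.06% wt/wt of it. Ethanol was raised in steps to 6% vol/vol, and feeding lasted 25 days by the methods and 24 days by the legend of the feeding scheme. All 4 groups shared the strain and a liquid diet. By the study's own account the EtOH IMC mice ate less and weighed less, and body weight also differed between Pair IMC and Pair control. IMC and weight thus cannot be told apart in either diet, nor IMC and intake in ethanol-fed mice. The same limit holds for the difference of the IMC effects between diets. The text of the study does not say whether weight or intake differed between Pair IMC and EtOH IMC, so the ethanol effect under IMC may carry it too.

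Taurine is a sulfonic acid that the liver uses above all to conjugate bile acids. Cysteine dioxygenase, the product of Cdo1, oxidizes cysteine to cysteine sulfinate, which cysteine sulfinic acid decarboxylase, the product of Csad, turns into hypotaurine, and hypotaurine is then oxidized to taurine. Cysteamine dioxygenase, the product of Ado, makes hypotaurine from the cysteamine that is set free when coenzyme A is broken down. The product of Slc6a6 is the sodium and chloride dependent taurine transporter of the plasma membrane. Cysteine that does not enter this route is spent on glutathione, coenzyme A, protein, or pyruvate and sulfide.

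Values are normalized read counts, that is, reads on a gene divided by a size factor of the library, rescaled so that all 16 libraries share 1 scale. The fold changes below are differences of mean log2(value + 1), with the standard error (SE) of that difference. Between 9632659 and 12601199 reads per library fell on genes, with a median of 11503499. Each of the 4 genes passed the filter on low values, and the fewest reads in any library were 166 for Ado, 527 for Csad, 1512 for Slc6a6 and 11887 for Cdo1. The 6 hepatocyte markers were read in each of the 16 libraries, with a summed level from 934629 to 1753164. The 3 pancreas markers summed to at most 1.01 and the 2 kidney markers to at most 1.94. The 2 intestine markers were read in each library, mostly as Fabp2, with 187 to 1476 reads against at most 28 for Vil1. Their sum was 956.6 to 1079 in Pair control, at most 616.1 in Pair IMC and 915.5 to 1030 in EtOH control. In EtOH IMC it reached 1247, in a range that overlapped EtOH control, and library 11 had the most Fabp2 reads. The source of these intestine marker reads was not tested. Library 11 of EtOH IMC stood apart by its muscle markers, Acta1 at 675.9 and Myh4 at 63.1, which summed to at most 2.21 in any library of the pair-fed groups and to 0 in EtOH control. The IMC effect on each of the 4 genes in ethanol-fed mice is therefore also given without it. The library numbers of control and IMC mice do not interleave within a diet (Pair IMC 2 to 8, Pair control 10 to 16, EtOH control 1 to 7, EtOH IMC 9 to 15). Anything that went with that numbering cannot be told apart from the IMC effect within a diet, from the ethanol effect in control or IMC-treated mice, or from the difference of the IMC effects between diets, whereas the mean of the IMC effects in the 2 diets draws on low and high numbers alike.

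Csad stood out among the 4 genes. Its level was 7.95-fold higher with IMC in pair-fed mice and 2.78-fold higher with IMC in ethanol-fed mice. Cdo1, by far the most abundant of the 4, was lower in both ethanol-fed groups than in either pair-fed group. Slc6a6 was highest in EtOH IMC, and Ado had similar means in the 4 groups, from 214.9 to 241.3.

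**Figure D1:**
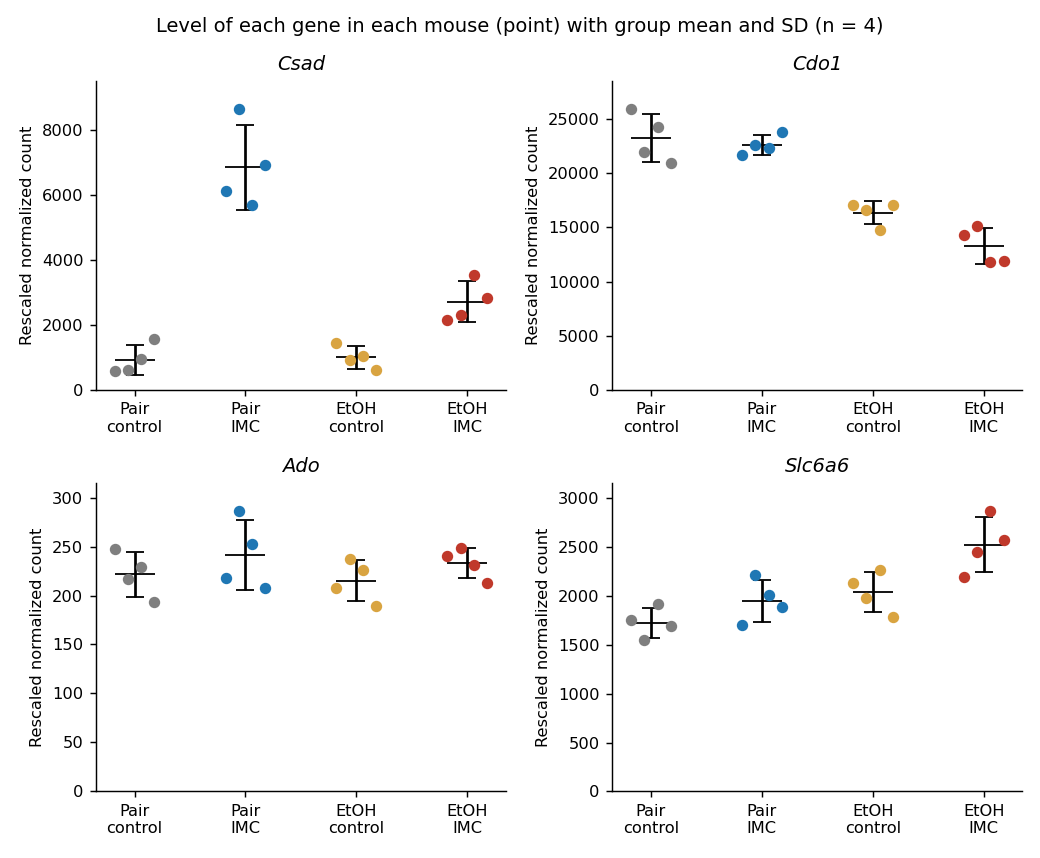
Rescaled normalized read counts (vertical axes, linear, from 0) of Csad, Cdo1, Ado and Slc6a6 in each of 16 mice, by group; points are mice, and black bars are the group mean and SD (n = 4). The Pair IMC mice sit between 5693 and 8651 for Csad, above each of the other 12 mice, and the ethanol-fed mice sit at or below 17036 for Cdo1, under each pair-fed mouse.

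Levels were also taken per kb of annotated exon, a rough common scale for genes of unlike length. The length joins the exons of all annotated transcripts of a gene, so close levels cannot be ordered by it. On that scale Cdo1 was at 14158 in Pair control, Csad at 241.7, Slc6a6 at 204.2 and Ado at 49.9 (rescaled normalized counts per kb, means of n = 4). In Pair control and EtOH control the ranges of Csad and Slc6a6 per kb met, with a ratio of Csad to Slc6a6 from 0.734 to 2.06 and from 0.741 to 1.51. In Pair IMC the order was Cdo1 at 13756, Csad at 1789, Slc6a6 at 231.0 and Ado at 54.3, and Csad was 6.26 to 8.63 times Slc6a6 in each mouse. In EtOH IMC the order was the same, with Cdo1 at 8078, Csad at 707.2, Slc6a6 at 298.6 and Ado at 52.4. Ado was the lowest of the 4 genes in each of the 16 mice.

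**Figure D2:**
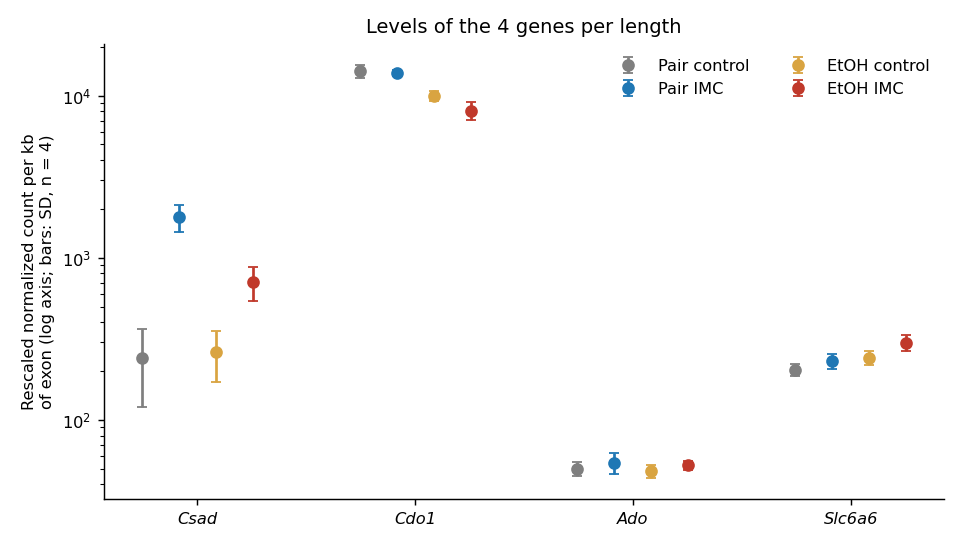
Mean level per kb of annotated exon of the 4 genes in each group (log axis; points are means of 4 mice, bars are the SD). Cdo1 lies highest in each group and Ado lowest, and Csad moves from 241.7 in Pair control, near Slc6a6 at 204.2, to 1789 in Pair IMC.

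Cdo1 (ENSMUSG00000033022) lies on the minus strand of chromosome 18, from 46713193 to 46728395 on GRCm38, and codes for the enzyme that oxidizes cysteine to cysteine sulfinate. Its level was 25936, 21988, 24237 and 20944 in Pair control and 21654, 22654, 22366 and 23786 in Pair IMC. It was 17036, 16644, 14782 and 17035 in EtOH control and 14302, 15123, 11758 and 11941 in EtOH IMC. The 2 pair-fed groups overlapped, the 2 ethanol-fed groups overlapped in part, and no ethanol-fed mouse reached the lowest pair-fed mouse. The mean was 23277 ± 2243 (SD, n = 4) in Pair control and 16374 ± 1078 in EtOH control, a log2 difference of -0.50 (SE 0.11). Between the IMC groups it went from 22615 ± 887 to 13281 ± 1688, a log2 difference of -0.78 (SE 0.11). The IMC effect was -0.04 (SE 0.11) in pair-fed and -0.31 (SE 0.11) in ethanol-fed mice on the log2 scale. The latter ran from -0.37, without library 11, to -0.25 over the 16 fits that left out 1 library. Liver tissue was sequenced in bulk, so fewer hepatocytes and less RNA per hepatocyte cannot be told apart, here or for the other genes.

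Csad (ENSMUSG00000023044) lies on the minus strand of chromosome 15, from 102176999 to 102204724 on GRCm38, with 23 annotated transcripts. Its level was 583.4, 610.5, 932.5 and 1577 in Pair control and 6141, 8651, 5693 and 6935 in Pair IMC. It was 1452, 924.0, 1034 and 600.2 in EtOH control and 2150, 2310, 3549 and 2828 in EtOH IMC. The 2 control groups overlapped almost wholly, each IMC mouse lay above each control mouse of either diet, and each Pair IMC mouse lay above each EtOH IMC mouse.

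The mean of Csad was 925.9 ± 462 (SD, n = 4) in Pair control and 6855 ± 1303 in Pair IMC, a log2 difference of 2.99 (SE 0.28), and 12 of 12522 genes tested differed by more in that comparison. In ethanol-fed mice it was 1003 ± 352 in EtOH control and 2709 ± 630 in EtOH IMC, a log2 difference of 1.47 (SE 0.28), and 197 genes differed by more. Csad was selected for its pattern in these libraries, so these ranks are a description only. Averaged over both diets the IMC effect was 2.23 (SE 0.20) on the log2 scale. Without library 11 the effect in ethanol-fed mice was 1.54.

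Under IMC, Csad was 2.55-fold lower in ethanol-fed than in pair-fed mice, a log2 difference of -1.35 (SE 0.28), and in control mice ethanol and pair feeding differed by 0.17 (SE 0.28). The IMC effect in ethanol-fed mice less that in pair-fed mice was -1.52 (SE 0.40) on the log2 scale. Over the 16 fits that left out 1 library it ran from -1.81, without library 16 of Pair control, the mouse with 1577, to -1.31. The spread among mice was widest in the controls, with a coefficient of variation of 49.9% in Pair control and 35.1% in EtOH control against 19% in Pair IMC and 23.3% in EtOH IMC.

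Zfp740, a zinc finger gene on the opposite strand, shares 278 of the 3831 exonic bases of Csad (7.26%), and whether the counting used strand is not given in the sources used here. Its mean was 519.7 ± 33.4 (SD, n = 4) in Pair control and 662.7 ± 67.8 in Pair IMC. In ethanol-fed mice it was 425.2 ± 51.5 in controls and 427.7 ± 88.6 with IMC. How many reads of Zfp740, if any, were counted in Csad was not tested.

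Promoter sequence was in the RefSeq table for Csad and Ado, 2 of the 4 genes. Both annotated starts of Csad are shown because it is the gene that differed most, and the start of Ado because its level differed least. The stretches are from GRCm38.p6, on the minus strand, within 250 bases before each start, with annotated exons left out. Capitals mark the searched motifs that they hold, CCAAT in the upstream start of Csad and GGGCGG, on the other strand, in the downstream start.
Csad upstream start, chr15:102205087-102205228: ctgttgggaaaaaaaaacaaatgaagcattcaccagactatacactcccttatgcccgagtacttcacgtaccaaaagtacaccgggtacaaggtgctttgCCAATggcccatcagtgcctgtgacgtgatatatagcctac
Csad downstream start, chr15:102189059-102189293: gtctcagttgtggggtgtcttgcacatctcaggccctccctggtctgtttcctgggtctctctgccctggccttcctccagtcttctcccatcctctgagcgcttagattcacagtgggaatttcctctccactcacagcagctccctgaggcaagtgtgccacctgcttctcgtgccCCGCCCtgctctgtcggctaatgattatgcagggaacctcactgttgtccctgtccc
Ado start, chr10:67548956-67549205: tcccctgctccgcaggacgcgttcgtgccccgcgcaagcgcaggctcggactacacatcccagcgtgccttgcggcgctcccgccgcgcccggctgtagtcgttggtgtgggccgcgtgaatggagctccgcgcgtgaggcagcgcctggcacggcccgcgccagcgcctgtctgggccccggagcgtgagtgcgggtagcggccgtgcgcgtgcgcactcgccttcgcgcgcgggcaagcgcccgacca

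The stretch at the upstream start of Csad lies in the span of Zfp740, outside its exons, and had a GC content of 45.8%. The stretch at the downstream start lies inside the gene Csad itself and had 57.9%, and that of Ado lies outside the gene and had 75.2%. Of the motifs searched on both strands, only CCAAT and GGGCGG had a match in the windows of these 2 genes. Among all 32851 promoter windows of the same length, 37.4% hold CCAAT and 35.7% hold GGGCGG. Of the motifs with no match here, 16.3% of all windows hold AGGTCA, 13.6% hold TATAAA and 12.4% hold TGACNNNGC. The longer TGATGCAA is held by 0.895% of windows. The longer TCAAGGTCA, each match of which is also a match of AGGTCA, is held by 0.423%. A match of CCAAT on the other strand spans the start of Ado. These matches describe the letters only, and the RNA counts were not split by start.

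Ado (ENSMUSG00000057134) lies on the minus strand of chromosome 10, from 67544511 to 67548955 on GRCm38, and its single annotated transcript has no intron. Its level was 248.0, 216.8, 229.6 and 193.2 in Pair control and 218.2, 286.5, 252.9 and 207.7 in Pair IMC. It was 207.6, 236.9, 225.8 and 189.4 in ethanol-fed controls and 240.2, 248.3, 231.5 and 212.3 in EtOH IMC. All 4 groups overlapped each other. The IMC effect was 0.11 (SE 0.11) in pair-fed and 0.12 (SE 0.11) in ethanol-fed mice on the log2 scale, the latter 0.09 without library 11. The ethanol effect was -0.05 (SE 0.11) in control and -0.04 (SE 0.11) in IMC-treated mice, and both turned positive with the values as deposited, at 0.14 and 0.15.

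Slc6a6 (ENSMUSG00000030096) lies on the plus strand of chromosome 6, from 91684053 to 91759066 on GRCm38. Its level was 1755, 1547, 1915 and 1692 in Pair control and 1702, 2212, 2009 and 1892 in Pair IMC. It was 2130, 1978, 2268 and 1788 in EtOH control and 2194, 2456, 2874 and 2578 in EtOH IMC. Neighbouring groups overlapped, and 3 of the 4 EtOH IMC mice lay above each of the other 12 mice. The means were 1727 ± 153, 1954 ± 214, 2041 ± 206 and 2525 ± 282 (SD, n = 4) in that order of groups.

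On the log2 scale the IMC effect on Slc6a6 was 0.18 (SE 0.10) in pair-fed mice, 0.31 (SE 0.10) in ethanol-fed mice and 0.24 (SE 0.073) averaged over both diets. The ethanol effect was 0.24 (SE 0.10) in control and 0.37 (SE 0.10) in IMC-treated mice. Over the 16 fits that left out 1 library, the IMC effect in ethanol-fed mice ran from 0.24 to 0.37 and the ethanol effect in IMC-treated mice from 0.31 to 0.44. Without library 11 they were 0.32 and 0.38. With the values as deposited the ethanol effect was 0.43 in control and 0.56 in IMC-treated mice.

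**Figure D3:**
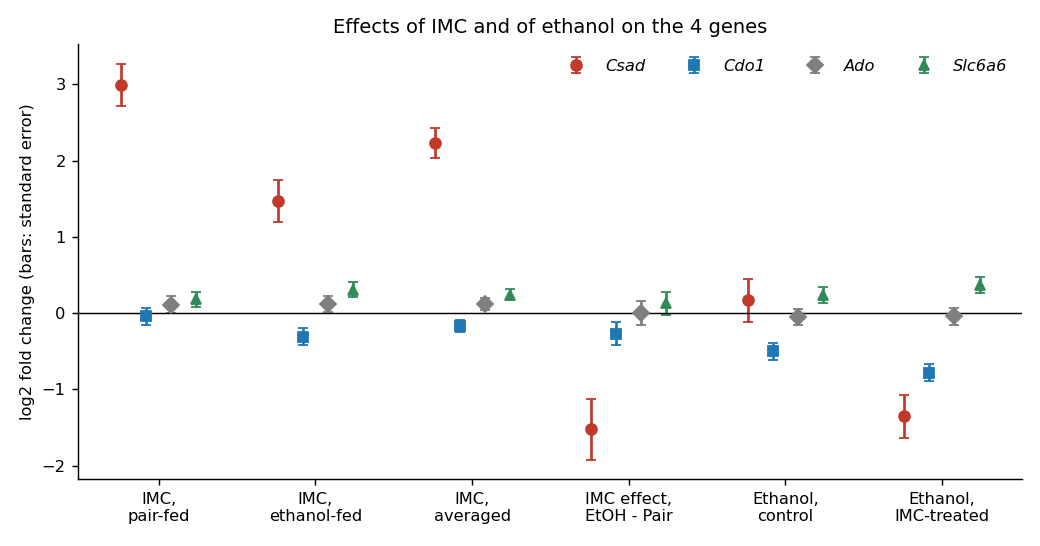
Log2 fold changes (vertical axis) of the 4 genes in the 6 comparisons (horizontal axis); points are estimates over 16 libraries and bars are standard errors. Csad lies at 2.99 and 1.47 for IMC, Cdo1 lies at -0.50 and -0.78 for ethanol, and Ado stays within 0.12 of 0.

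With IMC in pair-fed mice, 1 of the 4 genes passed an adjusted p of 0.05 (limma) where 9.49% of all genes tested did, and with IMC in ethanol-fed mice 3 of 4 passed where 21.5% did. For IMC averaged over both diets it was 2 of 4 against 28.2%, and for the difference of the IMC effects 0 of 4 against 1.11%. For ethanol it was 1 of 4 against 11.9% in control mice and 3 of 4 against 16.5% in IMC-treated mice. Groups did not overlap for 1 gene against 14.3% of all genes with IMC in pair-fed mice, and for 1 against 25.3% with IMC in ethanol-fed mice. They did not overlap for 1 against 19% with ethanol in control mice and for 2 against 19.2% with ethanol in IMC-treated mice. The genes were selected on these comparisons, so nothing is read from these counts.

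Within a mouse, the level of Csad per kb was 0.00965 to 0.0323 of that of Cdo1 in Pair control and 0.0151 to 0.0366 in EtOH control. It was 0.109 to 0.164 in Pair IMC and 0.0645 to 0.13 in EtOH IMC. In each mouse, then, the decarboxylase message stayed below the dioxygenase message, and the ratio was higher in each IMC mouse than in each control mouse. The ratio of Cdo1 to Slc6a6 per kb was 63.7 to 76 in Pair control, 52.7 to 65.5 in Pair IMC, 33.5 to 49 in ethanol-fed controls and 21 to 33.5 in EtOH IMC.

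**Figure D4:**
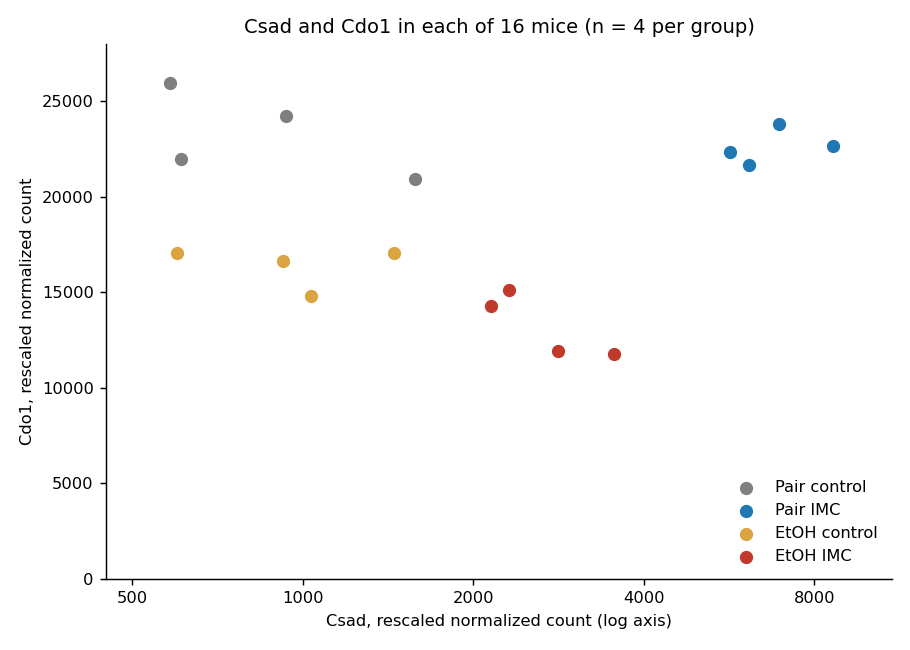
Csad (horizontal axis, log scale) against Cdo1 (vertical axis, linear, from 0), in rescaled normalized counts, for 16 mice coloured by group. IMC mice lie to the right of the controls on Csad, and ethanol-fed mice, between 11758 and 17036, lie under pair-fed mice, between 20944 and 25936, on Cdo1.

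Over the 16 libraries Cdo1 and Slc6a6 had a Pearson r of -0.78 on log2 values, and of -0.26 once the group means were taken out. Csad and Slc6a6 had 0.35 over all libraries and 0.56 within groups, and Csad and Cdo1 0.01 and -0.46. These are descriptions over 16 libraries that fall into 4 groups, and both genes of a pair were read in the same libraries.

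The genes whose levels followed each of the 4 most closely were sought among 8310 other genes with a mean of at least 100. For Csad they were Cd9 (r = 0.939), Spaca6 (0.923) and Tcp1 (0.916). Cd9, a tetraspanin of the cell surface, was at 226.2 ± 46.1 in Pair control, 499.4 ± 32.1 in Pair IMC, 222.8 ± 62.1 in ethanol-fed controls and 321.3 ± 65.9 in EtOH IMC (SD, n = 4). Spaca6 was at 61.9 ± 26, 255.3 ± 47.3, 83.7 ± 26.1 and 201.5 ± 9.78 in the same order. Both had the same order of IMC groups as Csad, over a smaller range.

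For Cdo1 they were Ccnl2 (r = 0.960), Smim10l1 (0.938) and Arglu1 (0.938). Ccnl2, a cyclin of splicing speckles, was at 2422 ± 170 in Pair control and 1365 ± 145 in EtOH IMC (SD, n = 4). For Slc6a6 they were Mast2 (0.908), Trip10 (0.883) and Tbl3 (0.881), and for Ado they were Hcfc1 (0.851), Pom121 (0.827) and Raver1 (0.812). With the group means taken out, r was 0.88 for Ado and Hcfc1 and 0.67 for Csad and Cd9. These are the highest of many correlations and describe these 16 libraries only.

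Around these 4 genes, 35 genes of cysteine and taurine metabolism were listed, and 33 of them passed the filter on low values. The cystine carrier gene Slc7a11, with at most 15 reads in a library, and Gadl1, a related decarboxylase gene with at most 8, did not. The list was chosen with earlier results of these data known. Its shares and adjusted p-values, and those of its parts below, are thus a description only. With IMC in pair-fed mice 2 of the 33 rose and 6 fell, and with IMC in ethanol-fed mice 5 rose and 10 fell. For IMC averaged over both diets 5 rose and 10 fell. With ethanol 5 rose and 1 fell in control mice, and 4 rose and 3 fell in IMC-treated mice. As a share of the 33 these are 24.2%, 45.5%, 45.5%, 18.2% and 21.2%, beside 9.49%, 21.5%, 28.2%, 11.9% and 16.5% of all genes tested. The share of all genes takes in less abundant genes too, as 8311 of the 12522 tested had a mean of at least 100. With only genes of such a mean fitted, 1019, 2302, 2894, 1310 and 1737 genes were called in the same order. Of the list, 8, 16, 15, 6 and 8 were called in that fit. The median log2 change of the list was -0.05 with IMC in pair-fed mice and -0.08 with IMC in ethanol-fed mice, and that of all genes tested was at 0 to 2 decimals in both.

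**Figure D5:**
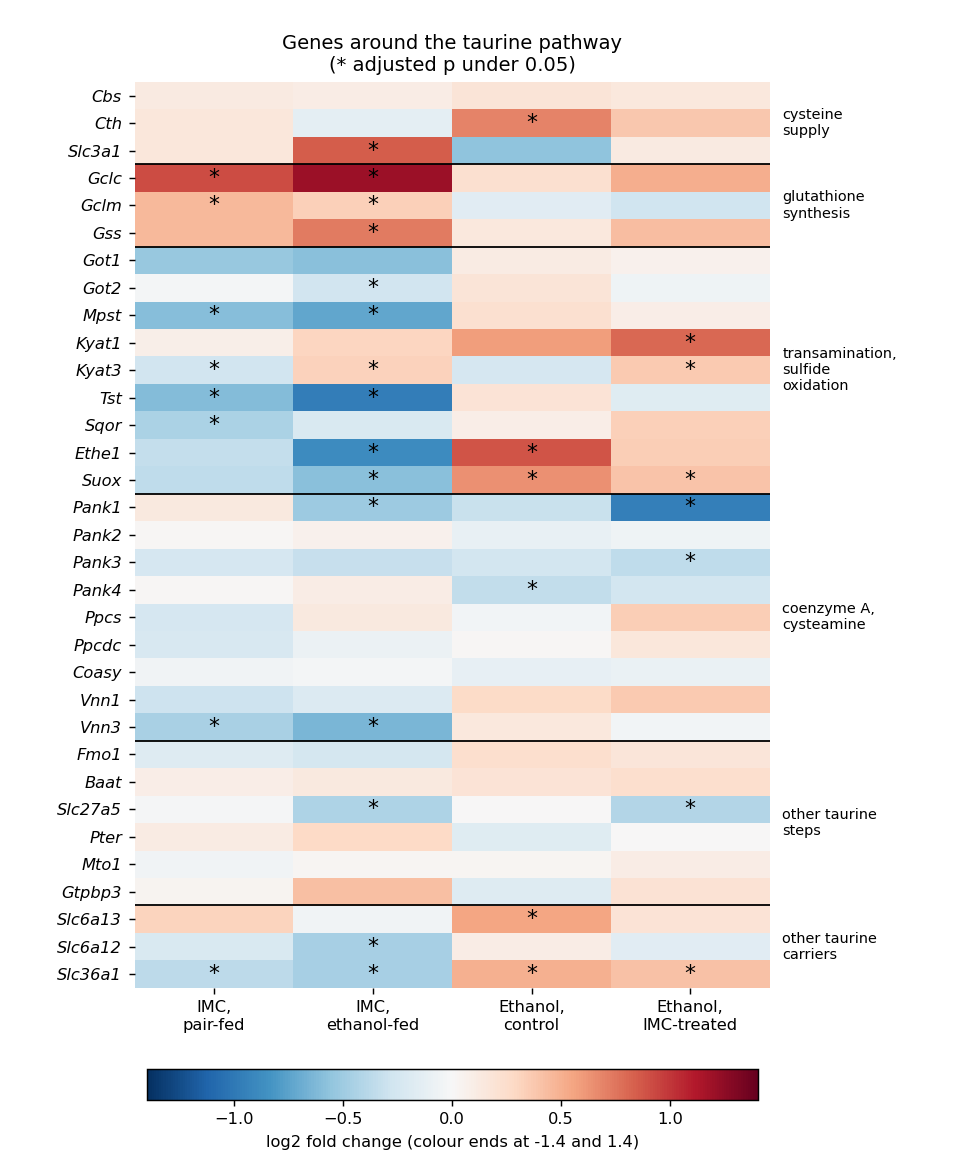
Log2 fold changes (colour) of the 33 tested genes of cysteine and taurine metabolism (rows, by group) with IMC in each diet and with ethanol in control or IMC-treated mice (columns); stars mark an adjusted p under 0.05 (limma). The glutathione genes are red and Mpst, Tst and Vnn3 are blue in both IMC columns. Suox and Slc36a1 are blue in both IMC columns, Suox without a star in pair-fed mice, and red in both ethanol columns.

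Of the 3 glutathione genes, 2 rose with IMC in pair-fed mice (66.7%, beside 9.49% of all genes tested) and 3 rose in ethanol-fed mice (beside 21.5%). Gclc, the catalytic subunit of glutamate cysteine ligase, went from 2736 ± 539 (SD, n = 4) in Pair control to 5152 ± 1021 in Pair IMC, a log2 rise of 0.91 (SE 0.18, adjusted p = 0.00498). In ethanol-fed mice Gclc went from 3153 ± 421 to 7356 ± 1889, a log2 rise of 1.20 (SE 0.18, adjusted p = 0.000245). Gclm, the modifier subunit, rose by 0.45 in pair-fed mice (adjusted p = 0.011) and by 0.33 in ethanol-fed mice (adjusted p = 0.025), and the latter did not pass in 5 of 16 fits that left out 1 library. Gss, glutathione synthetase, rose by 0.73 in ethanol-fed mice (adjusted p = 0.0135) and was 0.45 higher in pair-fed mice without passing (adjusted p = 0.153). None of the 3 passed for ethanol in either comparison or for the difference of the IMC effects between diets.

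Of the 9 genes of cysteine transamination and sulfide oxidation, 4 fell with IMC in pair-fed mice (44.4%, beside 9.49% of all genes tested). In ethanol-fed mice 5 fell and 1 rose (66.7%, beside 21.5%). Tst, thiosulfate sulfurtransferase, went from 2220 ± 164 to 1477 ± 298 in pair-fed mice, a log2 change of -0.61 (SE 0.12, adjusted p = 0.00414), and from 2524 ± 107 to 1297 ± 144 in ethanol-fed mice, a change of -0.97 (adjusted p = 3.65e-05). Mpst, which makes sulfide from mercaptopyruvate, changed by -0.60 (adjusted p = 0.00367) and -0.73 (adjusted p = 0.000321). For both genes no mouse given IMC reached the lowest control mouse of its diet.

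Further along the sulfide route, Sqor, the quinone-linked sulfide oxidoreductase, fell in pair-fed mice by 0.44 (adjusted p = 0.0192, not passed in 2 of 16 fits that left out 1 library) and was lower by 0.21 in ethanol-fed mice without passing. Ethe1, persulfide dioxygenase, changed by -0.88 with IMC in ethanol-fed mice (adjusted p = 0.021) and by 0.88 with ethanol in control mice (adjusted p = 0.0321). Those 2 comparisons share the EtOH control mice, in which Ethe1 was at 986.1 ± 86.6 (SD, n = 4) against 570.9 ± 229 in Pair control and 535.2 ± 32.2 in EtOH IMC. Its rise with ethanol did not pass in 6 of 16 fits that left out 1 library, and its fall with IMC did not pass without library 3 of EtOH control (adjusted p = 0.0519). Suox, sulfite oxidase, was likewise highest in EtOH control, with 2568 ± 189 in EtOH control against 1649 ± 177 in Pair control, a log2 rise of 0.64 with ethanol (adjusted p = 0.00195), and with 1706 ± 157 in EtOH IMC, a change of -0.59 with IMC (adjusted p = 0.00146). Suox also rose with ethanol in IMC-treated mice, by 0.40 (adjusted p = 0.022, not passed in 4 of 16 fits that left out 1 library). In pair-fed mice it was lower by 0.35 with IMC without passing (adjusted p = 0.0589). Got2, the mitochondrial aspartate aminotransferase, fell by 0.27 with IMC in ethanol-fed mice (adjusted p = 0.025, not passed in 4 of 16 fits that left out 1 library).

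Kyat3 and Kyat1 code for cysteine conjugate beta-lyases that also act as aminotransferases. Kyat3 was at 3832 ± 271 (SD, n = 4) in Pair control, 3170 ± 267 in Pair IMC, 3272 ± 227 in ethanol-fed controls and 4088 ± 270 in EtOH IMC. It rose by 0.32 with IMC in ethanol-fed mice (adjusted p = 0.0118) and by 0.37 with ethanol under IMC (adjusted p = 0.00704). In pair-fed mice IMC changed it by -0.27 (adjusted p = 0.0474), which did not pass in 11 of 16 fits that left out 1 library. The difference of the IMC effects was 0.60 (SE 0.12, adjusted p = 0.0237) and did not pass in 4 of 16 fits that left out 1 library (adjusted p up to 0.0586). Kyat1 rose by 0.80 with ethanol in IMC-treated mice (adjusted p = 0.0109).

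Among the genes that supply cysteine, Cth, cystathionine gamma-lyase, rose with ethanol in control mice from 4858 ± 375 to 7829 ± 850 (SD, n = 4), a log2 rise of 0.69 (adjusted p = 0.0134). In IMC-treated mice its ethanol effect was 0.38 and did not pass (adjusted p = 0.123). Slc3a1, a subunit of the cystine and dibasic amino acid carrier, rose with IMC in ethanol-fed mice by 0.85 (adjusted p = 0.0106). Cbs, cystathionine beta-synthase, passed in none of the 6 comparisons and lay between 4882 and 8453 in all 16 mice.

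Of the 9 genes of coenzyme A synthesis and cysteamine release, Vnn3, a pantetheinase gene, fell with IMC by 0.45 in pair-fed mice (adjusted p = 0.0168, not passed in 2 of 16 fits that left out 1 library) and by 0.64 in ethanol-fed mice (adjusted p = 0.000639). Vnn1, the other pantetheinase gene, passed in none of the 6 comparisons. Pank1, a pantothenate kinase gene, was at 4054 ± 388 (SD, n = 4) in Pair control, 4468 ± 353 in Pair IMC, 3262 ± 249 in ethanol-fed controls and 2307 ± 377 in EtOH IMC. It fell by 0.96 with ethanol under IMC (adjusted p = 3.13e-05) and by 0.51 with IMC in ethanol-fed mice (adjusted p = 0.00314). The difference of its IMC effects was -0.65 (adjusted p = 0.0471) and did not pass in 14 of 16 fits that left out 1 library.

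Pank3 changed by -0.27 with IMC averaged over both diets (adjusted p = 0.0193) and by -0.35 with ethanol under IMC (adjusted p = 0.0499), and the latter did not pass in 14 of 16 fits that left out 1 library. Pank4 changed by -0.34 with ethanol in control mice (adjusted p = 0.0497), which did not pass in 13 of 16. Pank2, Ppcs, Ppcdc and Coasy, the last 3 of which code for the later steps of coenzyme A synthesis, passed in no comparison.

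Among the other steps, Slc27a5, the bile acid coenzyme A ligase that acts before taurine is attached, was at 11528 ± 1810 (SD, n = 4) in EtOH control and 8521 ± 1227 in EtOH IMC. It changed by -0.43 with IMC in ethanol-fed mice (adjusted p = 0.0243, not passed in 3 of 16 fits that left out 1 library) and by -0.41 with ethanol under IMC (adjusted p = 0.0367, not passed in 5 of 16). Baat, which joins taurine to bile acids, passed in no comparison and ranged from 3066 to 4689. Fmo1, which can oxidize hypotaurine to taurine, changed by -0.22 with IMC averaged over both diets (adjusted p = 0.0243, not passed in 3 of 16). Pter changed by 0.20 in the same comparison (adjusted p = 0.0442, not passed in 10 of 16). Mto1 and Gtpbp3, which add taurine to mitochondrial transfer RNA, passed in no comparison.

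Of the 3 other carriers of taurine, 1 fell with IMC in pair-fed mice (beside 9.49% of all genes tested) and 2 in ethanol-fed mice (beside 21.5%). With ethanol 2 rose in control mice (beside 11.9%) and 1 in IMC-treated mice (beside 16.5%). Slc36a1, a proton-coupled amino acid carrier, fell with IMC by 0.37 in pair-fed mice (adjusted p = 0.0284, not passed in 5 of 16 fits that left out 1 library) and by 0.46 in ethanol-fed mice (adjusted p = 0.00406). It rose with ethanol by 0.50 in control mice (adjusted p = 0.00438) and by 0.41 in IMC-treated mice (adjusted p = 0.0106). Slc6a12, a betaine and GABA carrier, fell with IMC by 0.46 in ethanol-fed mice (adjusted p = 0.0185). Slc6a13, a GABA carrier that also takes up taurine, rose with ethanol by 0.55 in control mice (adjusted p = 0.0172), and not without library 12 of Pair control (adjusted p = 0.051). On the values as deposited, ethanol effects are higher by 0.19 throughout, which takes the list from 6 to 13 genes called in control mice and from 7 to 15 in IMC-treated mice.

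Summed levels of the markers of other liver cells were set beside these values, without a test. The 3 stellate markers summed to 899.9 to 1376 in Pair control, 792.6 to 1082 in Pair IMC, 1439 to 1862 in ethanol-fed controls and 787.4 to 1207 in EtOH IMC. The stellate ranges thus did not overlap between the ethanol-fed groups and overlapped between the pair-fed groups. The 3 bile duct markers summed to 87 to 395.7 in Pair control and 38.8 to 92.9 in Pair IMC, and the 4 Kupffer cell and leukocyte markers to 1048 to 2850 and 1164 to 1777, and both pairs of ranges overlapped. The 3 endothelial markers summed to 1609 to 1969 in Pair control, 1544 to 2090 in Pair IMC, 1857 to 2167 in ethanol-fed controls and 1561 to 2154 in EtOH IMC, with each group overlapping the others. The 6 hepatocyte markers summed to 1094269 to 1753164 in Pair control and 1570061 to 1697814 in Pair IMC, against 1008236 to 1146066 in ethanol-fed controls and 934629 to 1207510 in EtOH IMC. Alb had 798703 to 1485761 reads per library and the next highest marker, Cps1, at most 86989, so the hepatocyte sum mostly follows Alb. Alb, Apoa1 and Cyp2e1 had their most reads in a pair-fed library, and Ttr, Tat and Cps1 in an ethanol-fed one. The part of these marker levels in the values above was not tested.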

How the data were processed

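Liver RNA was sequenced from a TruSeq directional library kit, described as single-end in the methods and paired-end in the labels. The authors used Trim Galore, FastQC, STAR (mm10) and edgeR, per the labels; the counter and its strand setting are not given in the sources used here. The deposited signal values are the authors' read counts divided by a size factor per library: 100% of values were within 0.01 of whole reads. In library 15, 1 read is worth 1.0096, the closest to 1 of the 16 libraries, and edgeR was also run without it. Median ratios over all 16 libraries fell into 1 cluster per diet, although the methods name only upper quantile normalization, and all libraries were rescaled by these ratios (factors 0.9398 to 0.9449 for Pair, 1.0734 to 1.0789 for EtOH). The table held 27212 rows for 24082 gene IDs.

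The 12522 genes that reached 10 in no fewer than 4 libraries were fitted with limma 3.58.1 (R 4.3.3), on log2(value + 1) and over 4 group means with a mean-variance trend, two-sided, with Benjamini-Hochberg adjustment over all genes and a threshold of 0.05. The spread is over all 16 mice, and nothing pairs the libraries. In simulated counts over 12522 genes, with 200 genes changed by 1 (log2) in EtOH IMC, limma recovered 79% for IMC in ethanol-fed mice (8 false calls) and 56.5% for the difference between diets (5 false calls). Only that group was changed, up and down alike. In the data 21.5% of genes were called for IMC in ethanol-fed mice, so the simulated shares need not hold there. On whole reads, edgeR 4.0.16 called 1159 genes and DESeq2 1.42.0 called 1486 for IMC in pair-fed mice, and 2795 and 2946 for IMC in ethanol-fed mice; limma called 1188 and 2694.

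The members, the gene lists and the tests were chosen with earlier results of these data known. Genes named are the 4 members, the listed pathway genes called in at least 1 comparison (23 of 33; some of the other 10 are named by count or range), and the 3 genes most correlated with each member. Exon lengths and positions are from GENCODE vM21.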

Additional observations from a re-analysis of the deposited data

Results flagged for a closer look

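Among 108 groups of 4 mice over the genes described, 5 held a mouse far from the other 3 by Dixon's ratio, and chance alone marks about 1 in 20 groups. In EtOH IMC, library 13 had the lowest Slc3a1, 628.1 against 809.8 to 831.0 in the others, and the highest Gclc, 10175 against 6168 to 6619. In Pair control, library 16 had 1583 for Kyat1 against 715.2 to 768.0, and library 12 had 1359 for Pank3 against 1678 to 1701. In EtOH control, library 5 had 4154 for Slc6a13 against 4625 to 4687.

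The IMC effect differed between diets for 2 of the 33 pathway genes tested (6.06%, beside 1.11% of all genes tested). For Kyat3 the effect under ethanol less the effect under pair feeding was 0.60 on the log2 scale, and for Pank1 it was -0.65. The first did not pass in 4 of 16 fits that left out 1 library, and the second in 14 of 16.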

How the results depend on the processing

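Of the values recomputed under each alternative, 939 stayed near the value reported and 57 moved; no called value changed sign. For Csad, the IMC effect ran from 2.81 to 3.29 in pair-fed mice and from 1.25 to 1.68 in ethanol-fed mice over the fits that left out 1 library, and from 2.86 to 3.01 and 1.41 to 1.53 over the other settings. With the values as deposited, the ethanol effects under IMC and in control mice were 0.15 and 0.14 for Ado, -0.58 and -0.31 for Cdo1, and 0.56 and 0.43 for Slc6a6; 3620 and 3002 of all genes were called (3179 and 2801 of them higher, against 986 of 2064 and 795 of 1491), and 15 and 13 of the pathway genes. With only the libraries of the comparison, 691 genes and 5 pathway genes were called for IMC in pair-fed mice. For the difference of the IMC effects, DESeq2 called 339 genes, no filter 80 and no mean-variance trend 82, with 1 pathway gene each for no filter, no trend and edgeR with TMM or upper-quartile scaling. Without library 15, an alternative chosen after seeing the data, edgeR called 72 genes and 0 pathway genes there (1778 genes at an unadjusted p under 0.05), and 1344 genes for ethanol under IMC. Quantile normalization called 11 pathway genes for ethanol under IMC.

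Leaving out 1 library at a time, all genes called ranged from 537 to 1443 for IMC in pair-fed mice, 54 to 164 for the difference, 1368 to 2213 for ethanol under IMC and 803 to 1597 for ethanol in control mice; the lowest were without Pair IMC replicate 4, EtOH control replicate 5, EtOH IMC replicate 15 and EtOH control replicate 5. Pathway genes called ranged from 4 to 10, 0 to 2, 4 to 9 and 4 to 7. Without EtOH IMC replicate 11, 15 pathway genes were called for IMC in ethanol-fed mice, as with it, and 17 for IMC averaged. The cause of these changes was not tested. No paired analysis was possible because the labels give each library its own number and nothing pairs mice across groups. At 166 reads or more per library, depth limits Ado most among the 4 genes.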
